A study of Mus musculus with 3 samples.

Results

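Oxidative phosphorylation in mouse islets was described through 96 genes among the 32701 listed over both count tables. They were chosen by symbol alone: the 13 proteins encoded by the mitochondrial genome (symbols beginning mt-Nd, mt-Co, mt-Atp and mt-Cyt) and 83 nuclear genes for subunits of complex I (Nduf a, b, c, s and v), complex III (Uqcr), complex IV (Cox4 to Cox8) and ATP synthase (Atp5). Of these, 87 were listed in both tables and 86 passed the filter on low values, 73 nuclear and 13 mitochondrial. By symbol, the tested nuclear members were 37 of complex I (with Ndufa4 and Ndufa4l2), 8 of complex III, 14 of complex IV and 14 of ATP synthase. Cox7a1 was the one shared member below the filter.

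The respiratory chain passes electrons from NADH through complexes I, III and IV to oxygen and pumps protons across the inner mitochondrial membrane, and ATP synthase uses the return of those protons to make ATP. Its complexes are built from subunits of both genomes, so nuclear and mitochondrial transcripts have to be expressed in the same cell. In beta cells, ATP made from glucose closes a potassium channel and so starts insulin release, and the pathway is therefore part of glucose sensing as well as of energy supply. Several complex IV subunits exist as paired genes, a widespread form and a form known from muscle, lung or testis.

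The islets came from 6 adult mice carrying Ngn3-CreERT, a tamoxifen-activated recombinase driven from the endocrine progenitor gene Ngn3, together with the R26-CAG-TdTomato reporter, and were taken 10 days after tamoxifen. All 3 samples belong to this one group, so there was no untreated or Cre-free group and every comparison was between cell classes of the same islets. About 10000 dissociated cells per sample were loaded for 10x 3′ version 3 single-cell RNA sequencing. Replicates 2 and 3 each pooled 2 mice.

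Replicate 1 was one table (library 1, 1146 cells, median 18140 UMIs per cell), and replicates 2 and 3 shared a second, joint table of 16050 columns. Of these columns 3008 repeated other cells and were dropped, which left 13042 cells (median 13099.5 UMIs). Their barcodes fall into 3 blocks (5894, 3008 and 4140 cells) that the labels do not assign to samples, so the joint table counted as 1 library, and n was 2 throughout. The blocks shared 4 to 6 barcodes with each other and 0 to 5 with library 1. After filters, 853 and 11072 cells remained. The classes tested were beta (428 cells in library 1 and 6323 in the joint table), alpha (150 and 1020), delta (75 and 550), endothelial (26 and 773), macrophage (44 and 235), fibroblast (32 and 104) and pericyte (12 and 175), each a cluster named from its markers. PP, Schwann, B and T or NK cells were separable only in the joint table (414, 83, 76 and 19 cells). Clusters without a name (40 and 145 cells) entered no class. Nor did clusters with another name than beta whose median insulin UMIs exceeded 5 times the non-endocrine median (46 and 1155 cells). These were delta-named clusters (46 and 463 cells) and a 692-cell joint-table cluster with 3 acinar markers among its leading 10 genes. The 46-cell cluster was led by Ppy and was named delta from its leading 50 genes, by 3 delta against 2 PP markers. The 463-cell cluster had 2 delta and 2 PP markers among its leading 10. The acinar-named cluster had a median of 10.65% mitochondrial UMIs, the highest of its table's clusters, and 2821 insulin UMIs. The unnamed cluster of library 1 had a median of 9.74% mitochondrial UMIs, the highest of that library's clusters, and a median of 11700 insulin UMIs. Cells of all these clusters are in none of the shares below. The alpha class of library 1 included a 68-cell cluster led by Ppy. The clusters called fibroblast had different leading genes in the tables.

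A level is the mean over the cells of a class of UMIs per 10000 hormone-free UMIs, that is, the total without 7 hormone genes. The hormone genes were left out of the total because they take a large and class-specific share of every endocrine cell's transcripts. Because a 3′ tag counts a transcript once, levels were not scaled by length, and reads primed inside a transcript can still shift the balance between genes. Differences are on the scale of log2(level + 0.05), after each class-and-table column was centred on its median, with standard errors (SE) and adjusted p from limma over 11953 genes. The p-values measure only how class levels varied between 2 tables once the shift between the tables was removed. That spread was estimated from all 7 tested classes together and moderated over genes.

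Mitochondrially encoded transcripts made up the larger part of the pathway in every class, and beta cells had the highest share. In beta cells of library 1 they were 14.97% of hormone-free UMIs, and joint-table beta cells had 15.5% (14.7%, 15.5% and 16.6% in its blocks). Where a pair of values follows, the first is library 1 and the second the joint table. In alpha cells the share was 10.8% and 8.58% (blocks 7.99%, 8.81% and 9.42%), and in delta cells 8.57% and 8.43% (blocks 7.76%, 8.99% and 9.44%). PP cells of the joint table had 9.66%. Beta values did not overlap those of the other endocrine classes, whose own values overlapped each other.

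Outside the endocrine cells the mitochondrial share was lower. Endothelial cells had 4.54% and 4.11%, macrophages 5.10% and 4.14%, fibroblasts 5.21% and 5.06%, and pericytes 7.14% and 5.56%. Schwann cells of the joint table had 7.78%, B cells 6.54% and T or NK cells 4.51%. Except for Schwann cells, all of these were below the lowest delta value of any table or block, 7.76%.

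The place of beta cells depends on the total chosen. Of all UMIs, hormones included, mitochondrial members took 4.94% and 5.21% in beta cells, less than the 7.33% and 5.49% in alpha cells and the 6.62% and 5.66% in delta cells. Endothelial cells, at 4.48% and 3.54% of all UMIs, were below all 3 endocrine classes on either scale. Cells above 20% mitochondrial UMIs were left out, which removed 255 cells of library 1, while the joint table held none (highest 19.99%).

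Nuclear members took a small share that varied less, summed here over the 74 listed in both tables. They were 2.57% and 2.54% of hormone-free UMIs in beta cells, 2.08% and 2.30% in alpha cells, 2.26% and 2.51% in delta cells and 2.66% in PP cells. The highest share was in pericytes, at 3.13% and 3.33%, and stayed the highest of the 7 tested classes, at 2.64% and 2.92%, when Ndufa4l2 and Cox4i2 were left out. Endothelial cells had 1.88% and 2.02%, and macrophages the lowest, 1.41% and 1.69%. The ratio of mitochondrial to nuclear UMIs was 5.82 and 6.12 in beta cells, against 5.20 and 3.73 in alpha, 3.80 and 3.36 in delta, 2.42 and 2.03 in endothelial cells and 2.28 and 1.67 in pericytes. Within a class, cells with a higher nuclear share tended to have a lower mitochondrial one in the endocrine classes. Spearman's rho across cells was -0.29 and -0.31 in beta, -0.43 and -0.31 in alpha and -0.39 and -0.36 in delta cells, while endothelial cells had 0.39 and 0.03. These correlations are descriptions, since cells of a table share a library and a depth range. For them the mitochondrial share was taken over hormone-free UMIs and the nuclear share over that total without mitochondrial members. Of the endocrine values, rho with depth was furthest from 0 in alpha cells of library 1. There it was 0.53 for the nuclear and -0.45 for the mitochondrial share, against -0.02 and -0.01 in joint-table alpha cells.

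**Figure D1:**
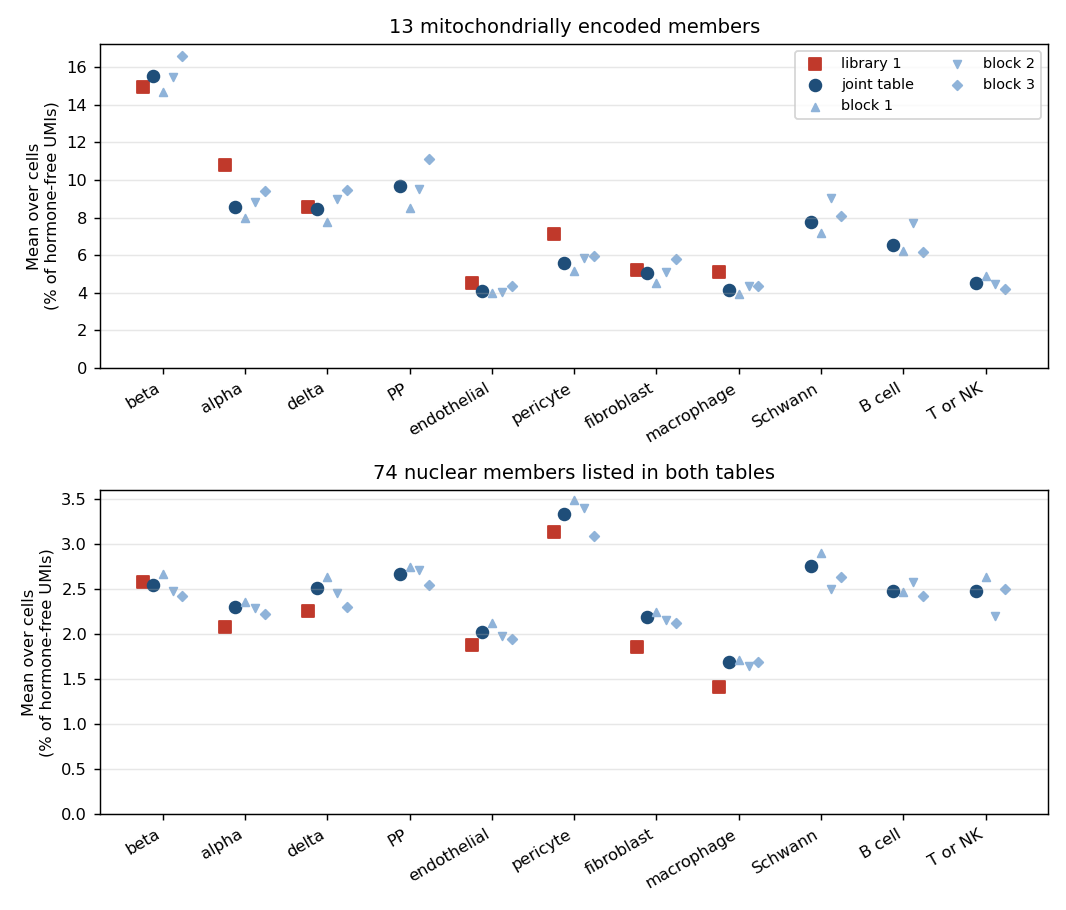
Mitochondrially encoded members (upper panel) and nuclear members listed in both tables (lower panel) as a mean percentage of hormone-free UMIs in each cell class, for library 1 (squares), the joint table (circles) and its barcode blocks (small symbols). Beta cells had the highest mitochondrial share, 14.97% and 15.5%, on this total but not as a share of all UMIs (4.94% and 5.21%, under alpha and delta cells), and pericytes had the highest nuclear share of the classes present in both tables.

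Beta cells were first compared with alpha cells. Cox6a2, the form of complex IV subunit 6a known from heart and skeletal muscle, was the member with the largest difference, about 18-fold higher in beta cells on the log2(level + 0.05) scale, which understates the change of a gene this low in alpha cells. The nuclear members Ndufv3 and Uqcrq rose with it, along with mt-Cytb, and Ndufa6 fell. In all, 5 members were higher and 1 lower, where 2.49% and 2.42% of all tested genes were called higher and lower. The median log2 difference was 0.06 over nuclear members, 0.48 over mitochondrial members and -0.07 over all genes. With all UMIs as the total the split was 2 higher and 2 lower, and after thinning each cell to 1000 hormone-free UMIs none was called.

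Cox6a2 lies at chr7:128205435-128206387 on the minus strand (GENCODE M21 on mm10) and overlaps Itgad on the other strand; strand use in counting was not given in the sources used here. Its level in beta cells was 3.17 and 2.60 (blocks 2.72, 2.51 and 2.51). In alpha cells it was 0.0818 and 0.115 (blocks 0.131, 0.114 and 0.0894), in delta cells 0.107 and 0.130 (blocks 0.142, 0.0943 and 0.139), and in PP cells 0.583. Itgad itself had 5 UMIs over all beta cells of the joint table. Every beta value lay far above every alpha and delta value. The log2 difference was 4.18 ± 0.76 (SE) against alpha cells (limma, adjusted p = 0.00815) and -4.16 ± 0.76 for delta against beta cells (limma, adjusted p = 0.00772).

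The widespread form Cox6a1 was at like levels in the endocrine classes, so the 2 forms stood in different proportion. Cox6a1 was at 2.01 and 2.87 in beta, 1.92 and 2.53 in alpha and 1.87 and 2.44 in delta cells, and its beta against alpha log2 difference of -0.01 was not called (limma, adjusted p = 0.999). Cox6a2 was 61.3% of the UMIs of both forms in beta cells of library 1 (exact binomial 95% interval 59.5% to 63.0%) and 47.8% of those in the joint one (47.1% to 48.4%). In alpha cells it was 3.47% and 3.96%, in delta cells 6.98% and 7.90%, in PP cells 20.4%, and in endothelial cells 0% (up to 4.99%) and 5.90%. These intervals, and all others here, cover counting error only.

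**Figure D2:**
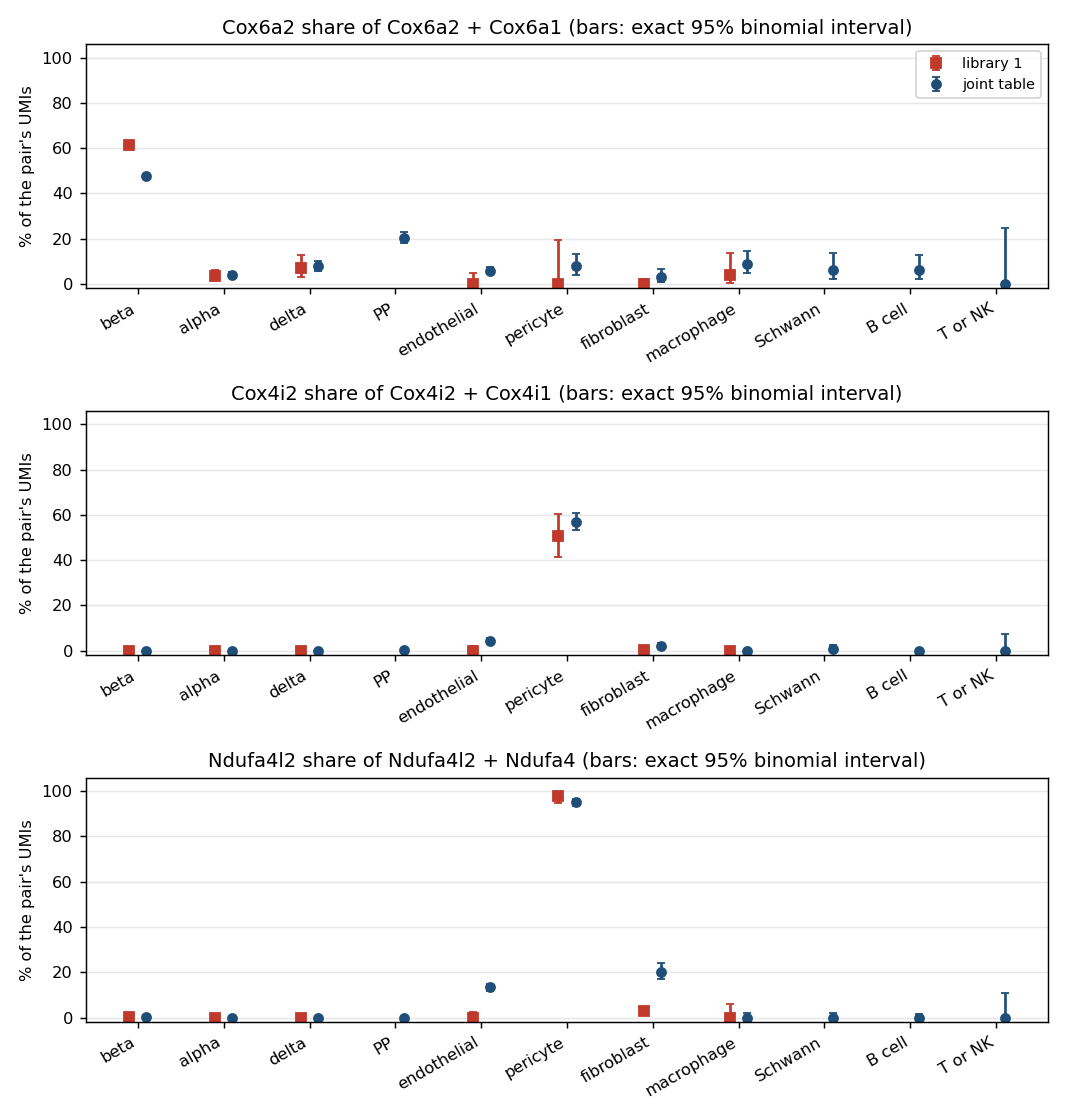
Share of the less widespread form among the UMIs of both forms, in percent by cell class, for Cox6a2, Cox4i2 and Ndufa4l2, with squares for library 1, circles for the joint table and bars for exact binomial 95% intervals. Cox6a2 stood out in beta cells (61.3% and 47.8%), and Cox4i2 and Ndufa4l2 in pericytes (50.9% and 57.1%, and 97.8% and 95.1%).

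Insulin RNA was found in every class, at a median of 281 UMIs per endothelial cell of the joint table, so the low Cox6a2 levels outside beta cells were set beside insulin. Beta cells of that table had 0.118 Cox6a2 UMIs per 1000 insulin UMIs. The same ratio was 0.135 in alpha cells (exact 95% interval 0.102 to 0.175), 0.0982 in delta cells (0.0727 to 0.130), 0.109 in PP cells (0.095 to 0.125) and 0.134 in endothelial cells (0.1005 to 0.175), all of them intervals that include the beta value. Over the blocks the PP ratio ran from 0.0698 (0.0522 to 0.0912), below the beta ratio of that block (0.119), to 0.149 (0.125 to 0.177), above it (0.121). The part of free beta cell RNA in these low levels was not tested. In library 1 the alpha ratio, 0.539 (0.269 to 0.965, from 11 UMIs), was above the beta ratio of 0.149, and the delta ratio, 0.194 (0.089 to 0.369), included it.

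Depth differed between the classes, and the share of cells with a Cox6a2 UMI was therefore also taken after thinning each cell to 1000 hormone-free UMIs. Unthinned, 79.9% and 63.5% of beta cells had a UMI, at a median of 12235.5 and 6225 hormone-free UMIs, against 5.33% and 5.10% of alpha cells, at 9204.5 and 4979. Thinned, the share was 23.6% (19.7% to 27.9%) and 21.2% (20.2% to 22.2%) in beta cells and 0% (up to 2.46%) and 0.982% (0.472% to 1.80%) in alpha cells. In the fit on thinned cells the log2 difference was 4.94 and no longer passed the threshold (limma, adjusted p = 0.06), and for delta against beta cells it was -3.54 (adjusted p = 0.642). In that fit 53.6%, 50.3% and 69.1% of 11956 genes were at 0 in endothelial cells, fibroblasts and pericytes of library 1. These columns were centred on the pseudocount itself (-4.32) and share the estimate of the spread. The part of depth in the lost calls was not tested. In the joint table the thinned share was 5.08% in PP and 2.77% in endothelial cells.

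Within the beta class Cox6a2 ranged from 1.60 to 4.87 over the 4 clusters of library 1 and from 1.88 to 3.69 over the 7 clusters of the joint table. These clusters were made from the same cells, so the values are descriptions. The cluster with the highest Cox6a2 in library 1 (129 cells, led by Ins1, Ins2, Prss53 and Trpm5) had Cox6a1 at 2.04, against 1.94 to 2.12 in the other clusters. Of the joint-table clusters, 2 had nearly the same highest value, 3.69 (115 cells, led by Npy, Pdyn and Pcsk1) and 3.67 (91 cells, led by Car15, Nupr1 and Atf5), with Cox6a1 at 2.83 and 3.08. Their mitochondrial shares were 13.03% and 14.9%, in a range of 13.03% to 16.7%. The lowest Cox6a2 in library 1, 1.60, was in a 24-cell cluster whose leading genes also included Pdyn.

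The tested genes whose level followed Cox6a2 most closely over the 18 class-and-table columns were Prss53 (Pearson r 0.95), Gad1 (0.94), Plut (0.94), Trpm5 (0.94), Fam151a (0.93), Sytl4 (0.93), Gpr158 (0.92) and G6pc2 (0.92). None was a member of the pathway. The closest members were mt-Cytb (0.67, rank 202) and mt-Nd4l (0.62, rank 343). The columns share libraries and class names, so no p is given.

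Uqcrq, a small subunit of complex III (chr11:53427922-53430831, minus strand), was also highest in beta cells. It was at 5.21 and 5.96 in beta cells (blocks 6.25, 5.91 and 5.64), 2.62 and 2.90 in alpha cells and 2.35 and 2.95 in delta cells. Beta values lay above all alpha and delta values, which overlapped each other. Log2 differences were 0.87 ± 0.18 for beta against alpha (limma, adjusted p = 0.0177) and -1.11 ± 0.18 for delta against beta (limma, adjusted p = 0.00419).

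Ndufv3, an accessory subunit of the NADH-binding arm of complex I (chr17:31520115-31531331, plus strand), was at 4.25 and 5.29 in beta cells and 1.95 and 2.69 in alpha cells, a log2 difference of 0.90 ± 0.22 (limma, adjusted p = 0.0361). Delta cells were between them, at 2.33 and 3.66. Ndufa6, an accessory subunit that anchors an acyl carrier protein to complex I (chr15:82350140-82354322, minus strand), went the other way. It was at 2.49 and 2.497 in beta cells and 4.21 and 4.73 in alpha cells, and fell by 0.95 ± 0.19 on the log2 scale in beta relative to alpha cells (limma, adjusted p = 0.0149). Delta cells, at 3.75 and 4.49, were near alpha cells. Over 16 alternative settings the beta against alpha call was kept in 15 for Cox6a2, 13 for Ndufa6, 10 for Uqcrq, 9 for Ndufv3 and 8 for mt-Cytb.

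Promoter sequences, 250 bases before to 50 after the RefSeq start on GRCm38.p6, were available for 64 of the 83 nuclear members and are shown, in the direction of the gene, for 4 of them. Ndufv3 and Ndufa6 differed between beta and alpha cells in opposite directions, Cox6a1 is the widespread partner of Cox6a2, and Cox8a is described with the pericytes below. Capitals mark a match to the palindromic motif of NRF1, a regulator of nuclear respiratory genes, or to the ETS motif bound by GABP (CCGGAAGT), on either strand.
Ndufv3, chr17:31519865-31520164, plus strand: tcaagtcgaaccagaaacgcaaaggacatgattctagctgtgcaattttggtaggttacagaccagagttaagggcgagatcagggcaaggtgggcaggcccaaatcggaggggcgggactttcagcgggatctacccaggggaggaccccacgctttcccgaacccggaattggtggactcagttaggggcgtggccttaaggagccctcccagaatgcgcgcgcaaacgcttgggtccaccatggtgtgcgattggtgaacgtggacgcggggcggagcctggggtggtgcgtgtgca
Ndufa6, chr15:82354242-82354541, minus strand: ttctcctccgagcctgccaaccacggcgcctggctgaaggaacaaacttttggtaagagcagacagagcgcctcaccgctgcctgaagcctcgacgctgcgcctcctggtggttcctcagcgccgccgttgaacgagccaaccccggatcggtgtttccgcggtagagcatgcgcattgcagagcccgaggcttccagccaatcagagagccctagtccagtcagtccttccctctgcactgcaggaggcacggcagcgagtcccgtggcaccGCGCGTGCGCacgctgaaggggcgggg
Cox6a1, chr5:115348909-115349208, minus strand: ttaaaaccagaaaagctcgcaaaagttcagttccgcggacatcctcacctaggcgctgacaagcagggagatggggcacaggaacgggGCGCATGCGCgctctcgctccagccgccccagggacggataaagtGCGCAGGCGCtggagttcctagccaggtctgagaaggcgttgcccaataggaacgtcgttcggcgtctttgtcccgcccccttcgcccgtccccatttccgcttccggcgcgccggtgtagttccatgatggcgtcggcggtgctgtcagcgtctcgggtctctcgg
Cox8a, chr19:7217567-7217866, minus strand: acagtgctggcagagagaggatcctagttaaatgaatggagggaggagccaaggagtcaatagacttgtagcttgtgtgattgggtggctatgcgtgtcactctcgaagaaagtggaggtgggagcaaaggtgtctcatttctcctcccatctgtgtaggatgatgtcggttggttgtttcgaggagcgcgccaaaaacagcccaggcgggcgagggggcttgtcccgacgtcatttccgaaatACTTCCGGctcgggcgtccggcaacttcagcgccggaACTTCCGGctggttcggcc

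The NRF1 motif occurred in 16 of 69 member promoters (23.2%) and in 4.60% of the 32851 promoters in the reference. The ETS letters occurred in 5 of 69 (7.25%) against 3.89%, and those of YY1 (AAGATGGCG), another regulator of these genes, in 7 of 69 (10.1%) against 1.40%. Cox6a1 held 2 NRF1 matches, Ndufa6 held 1, and Cox8a held 2 ETS matches. Ndufv3 held none of these letters in this window. A match is a description of the letters and no test was made. Cox6a2, Cox4i2, Ndufa4l2 and Uqcrq are not among the promoters shown.

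Mitochondrial members were described next by complex. Among the subunits of complex IV, mt-Co3 was at 319 and 356 in beta, 256 and 208 in alpha, 187 and 197 in delta and 76.7 and 78.0 in endothelial cells. mt-Co1 was at 212 and 198 in beta, 130 and 102 in alpha, 128 and 115 in delta and 64.7 and 51.2 in endothelial cells. mt-Co2 was at 236 and 222 in beta, 169 and 120 in alpha, 132 and 121 in delta and 69.6 and 62.9 in endothelial cells. In each of these genes beta cells were highest and endothelial cells lowest, with no overlap. mt-Cytb, the complex III subunit that carries both haem b groups, was at 156 and 193 in beta, 91.5 and 91.6 in alpha, 82.6 and 102 in delta and 42.1 and 44.4 in endothelial cells. Its beta against alpha log2 difference was 0.80 ± 0.20 (limma, adjusted p = 0.0439).

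Of the complex I subunits, mt-Nd4 was at 91.9 and 101 in beta, 65.6 and 53.0 in alpha, 50.1 and 48.5 in delta and 26.6 and 23.1 in endothelial cells. mt-Nd5 was at 13.5 and 12.4 in beta, 10.1 and 7.06 in alpha, 5.72 and 5.60 in delta and 3.98 and 3.03 in endothelial cells. mt-Nd1, at 52.1 and 77.7 in beta against 52.8 and 57.3 in alpha cells, overlapped between these classes. mt-Nd6 did not follow the rest. It is the one protein gene on the other strand of the mitochondrial genome (bases 13552 to 14070, overlapping mt-Nd5), and it was at 0.522 and 0.862 in beta, 0.606 and 0.510 in alpha, 0.689 and 0.859 in delta and 0.535 and 0.623 in endothelial cells. mt-Atp6, a proton-channel subunit of ATP synthase, was at 298 and 265 in beta, 180 and 154 in delta and 113 and 89.1 in endothelial cells, while mt-Atp8, whose coding sequence overlaps it, was at 2.32 and 2.55, 1.44 and 1.62, and 1.46 and 1.04.

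Delta cells were then compared with beta cells. On the hormone-free scale 8 of 13 mitochondrial members were lower in delta cells, as were Cox6a2 and Uqcrq, but with all UMIs as the total no mitochondrial member was called lower. In all, 11 members were lower, where 2.07% of all tested genes were called lower. No member was called higher by limma (2.37% of all genes were), with 1 at an unadjusted p under 0.05, while edgeR called 1 and DESeq2 called 4. With all UMIs as the total the split was 1 higher and 3 lower, and after thinning none was called. The median log2 difference was -0.06 over nuclear members, -0.90 over mitochondrial members and -0.01 over all genes.

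The mitochondrial log2 differences called in delta against beta cells ran from -0.89 ± 0.20 for mt-Nd4l to -1.23 ± 0.26 for mt-Nd5, with limma adjusted p = 0.0281 and 0.0209. Between them were mt-Nd3 (-1.09 ± 0.23), mt-Nd2 (-1.03 ± 0.22), mt-Nd4 (-1.01 ± 0.19), mt-Nd1 (-0.97 ± 0.21), mt-Cytb (-0.96 ± 0.20) and mt-Co2 (-0.90 ± 0.21). Those not called were mt-Co1, mt-Co3, mt-Atp6, mt-Atp8 and mt-Nd6, whose difference was 0.14. Hormone-free depth was lower in delta cells, at a mean of 8245 and 4186 UMIs per cell against 13589.5 and 6832 in beta cells. The delta-named clusters set aside for insulin were deeper than those kept, at medians of 16222.5 and 10029 against 7671 and 3634.5. Both also had PP markers among their leading genes, and that of library 1 was led by Ppy. Of the kept delta cells, 62 of 75 and 459 of 550 held a second hormone above its limit. So did 84 of 150 and 531 of 1020 alpha cells, and 21 of 428 and 334 of 6323 beta cells. The part of depth and of the clusters set aside in the result was not tested. Over the 16 settings these mitochondrial calls were kept in 7 (mt-Co2) to 12 (mt-Nd4).

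**Figure D3:**
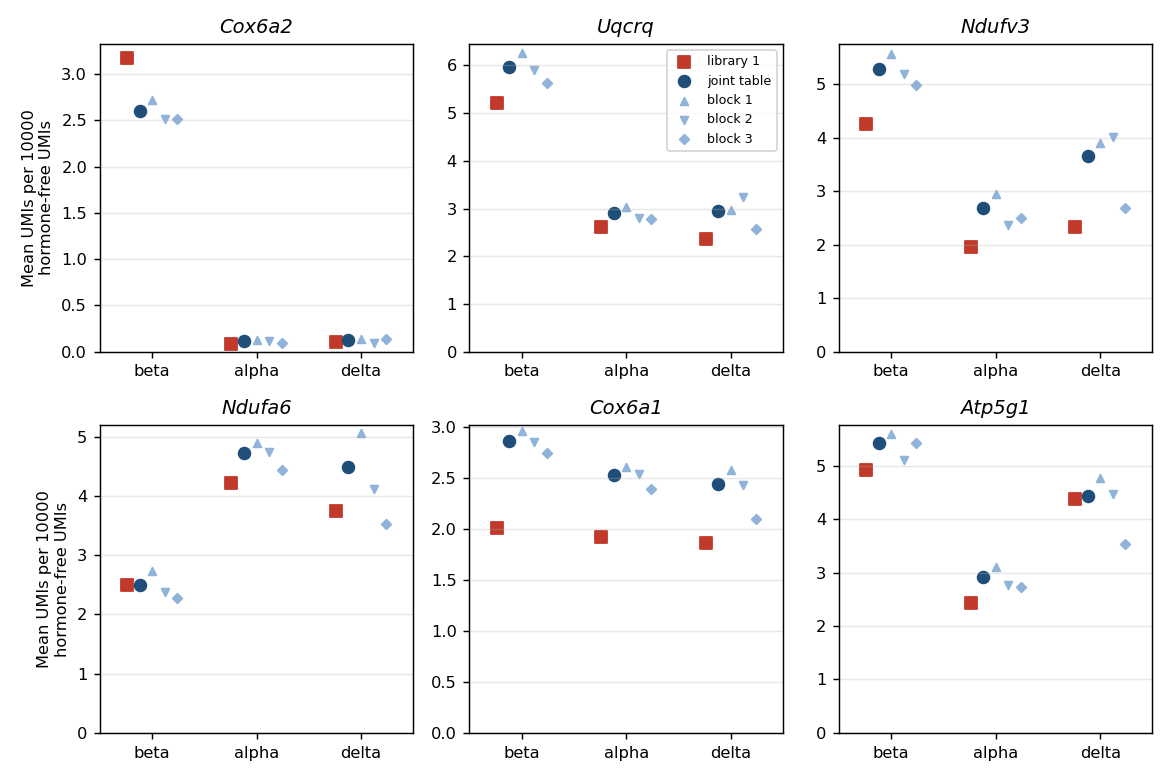
Mean UMIs per 10000 hormone-free UMIs of 6 nuclear members in beta, alpha and delta cells, with squares for library 1, circles for the joint table and small symbols for its barcode blocks. Cox6a2 (3.17 and 2.60 in beta cells) and Uqcrq were higher in beta cells, Ndufa6 was higher in alpha cells (4.21 and 4.73), Cox6a1 was at like levels in all 3 classes, and Atp5g1 (4.93 and 5.43 in beta against 2.44 and 2.92 in alpha cells) was not called.

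The mean of the 3 endocrine classes was compared with endothelial cells. Mitochondrial members were higher in endocrine cells almost throughout, 11 of 13, with mt-Co3 the largest and mt-Nd6 and mt-Atp8 the exceptions that were not called. Nuclear members were mixed, with 11 higher and 3 lower of 73. In all, 22 members were higher and 3 lower, where 19.6% and 18.2% of all tested genes were called higher and lower, so the nuclear count of 11 of 73 higher was below the background. The medians were 0.14 for nuclear members, 1.14 for mitochondrial members and 0.05 for all genes. With all UMIs as the total the split was 15 higher and 7 lower. After thinning none was higher and 1 was lower, and mt-Nd2, mt-Nd3, mt-Nd4, mt-Nd4l, mt-Nd5, mt-Atp6, Atp5e and Atp5g1 changed sign, in a setting where 53.6% of 11956 genes were at 0 in endothelial cells of library 1.

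In that comparison mt-Co3 rose by 1.52 ± 0.18 (log2, limma, adjusted p = 6.79e-05), mt-Nd4 by 1.25 ± 0.16 (adjusted p = 9.05e-05) and mt-Cytb by 1.25 ± 0.16 (adjusted p = 0.000112). mt-Nd2, mt-Co1, mt-Nd1, mt-Nd5 and mt-Co2 differed by 1.16, 1.16, 1.15, 1.14 and 1.13, mt-Nd3 and mt-Nd4l by 1.03 and 1.01, and mt-Atp6 by 0.83. The called differences thus covered subunits of complexes I, III and IV and ATP synthase.

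**Figure D4:**
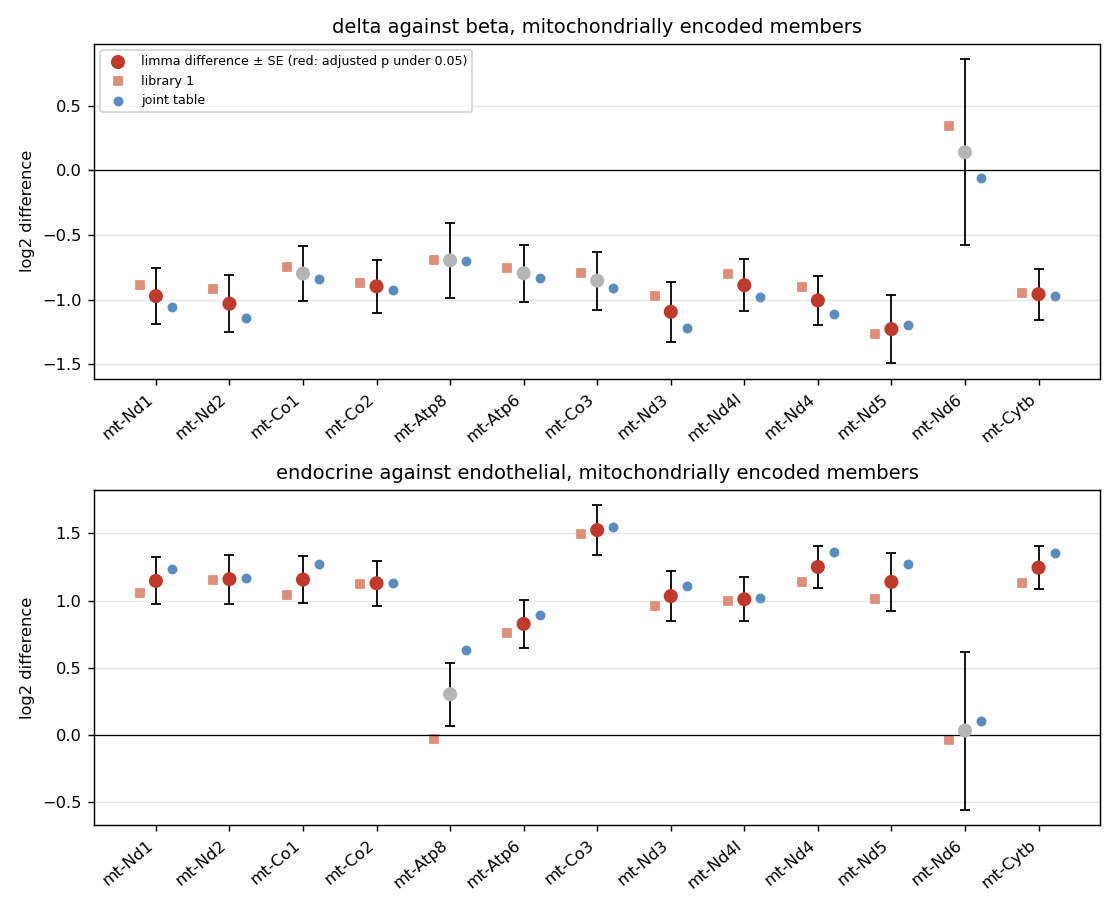
Log2 difference ± SE from limma for each mitochondrially encoded member, in the order of the mitochondrial genome, for delta against beta cells (upper panel) and endocrine against endothelial cells (lower panel), with the difference in each table beside it and red for an adjusted p under 0.05. All but mt-Nd6 lay below 0 in the upper panel on the hormone-free total, where 8 were called, while none was called lower with all UMIs as the total, and 11 of 13 were called higher in the lower panel.

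Among nuclear members, Atp5e, the epsilon subunit of the ATP synthase head, was at 10.5 and 11.5 in beta, 11.5 and 13.2 in alpha, 8.40 and 9.28 in delta and 4.01 and 5.16 in endothelial cells. It differed by 1.07 ± 0.18 (limma, adjusted p = 0.0006), with no overlap. Cox5a, a complex IV subunit on the matrix side (chr9:57521274-57532426, plus strand), was the largest lower member. It was at 3.46 and 3.12 in endothelial cells, 1.84 and 1.43 in beta, 0.649 and 0.786 in alpha and 1.44 and 1.08 in delta cells, a difference of -1.64 ± 0.25 (limma, adjusted p = 0.000392). Ndufa8 (-0.83) and Atp5j (-0.51) were the other two lower members. Other higher nuclear members included Ndufa1 (0.99), Ndufs1 (0.86), Ndufv3 (0.74), Ndufb2 (0.70), Ndufa11 (0.69), Atp5l (0.64), Uqcr11 (0.54), Ndufa2 (0.52) and Atp5g1 (0.50), the last past the threshold in only 6 of 16 settings and at -0.62 after thinning. By complex, 7 of 37 in complex I, 3 of 14 in ATP synthase, 1 of 8 in complex III and 0 of 14 in complex IV were higher, with complexes I and III and ATP synthase near the background of 19.6%.

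Pericytes, the mural cells around capillaries, were compared with endothelial cells, the other vascular class. They differed in isoforms: Cox4i2, a hypoxia-responsive form of complex IV subunit 4 known from lung, and Ndufa4l2, a hypoxia-induced paralogue of Ndufa4, were high in pericytes, and Ndufa4 itself, now counted with complex IV, was low. In all, 25 members were higher and 1 lower, where 7.39% and 10.9% of all tested genes were called higher and lower. Of the 73 nuclear members, 66 had a positive difference, with a median of 0.63 against 0.54 for mitochondrial members and -0.07 for all genes. Complexes were assigned here by gene symbol, which places Ndufa4 and Ndufa4l2 in complex I. The 23 higher nuclear members were 15 of 37 in complex I, 2 of 8 in complex III, 4 of 14 in complex IV and 2 of 14 in ATP synthase.

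Library 1 held only 12 pericytes, and pericytes were shallower (a mean of 5115 and 1757 hormone-free UMIs against 10921 and 3481). Called higher were 8 members by edgeR on summed counts, 34 by DESeq2 and 2 by the fit on thinned cells. Each of these counts stands without the share of all genes called by the same method. The part of depth in the result was not tested.

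Cox4i2 (chr2:152754173-152765037, plus strand) was at 13.1 and 13.7 in pericytes (blocks 12.8, 15.05 and 14.2), against 0 and 0.200 in endothelial cells and 0.0536 and 0.724 in fibroblasts. In library 1 the 58 pericyte UMIs against 0 endothelial UMIs gave a level at least 89.4-fold higher, taking 3 counts over the class as the limit. On UMIs summed over the cells of the joint table (424 and 97), which weights deep cells more than the mean level does and gives a smaller ratio, the ratio was 38.3 (exact 95% interval 30.6 to 48.2). The log2 difference was 6.94 ± 0.73 (limma, adjusted p = 5.5e-05), although DESeq2 gave an adjusted p of 0.107. Its partner Cox4i1 was at 9.77 and 10.4 in pericytes and 6.59 and 8.24 in endothelial cells. Cox4i2 therefore made up 50.9% (41.3% to 60.4%) and 57.1% (53.4% to 60.7%) of the pair in pericytes, against 0% and 4.49% in endothelial cells and 0% and 0.01% in beta cells.

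Ndufa4l2 (chr10:127514967-127517154, plus strand, overlapping Shmt2 on the other strand) was at 35.5 and 27.3 in pericytes (blocks 26.1, 33.0 and 25.5). It was at 0 and 0.447 in endothelial cells (blocks 0.459, 0.499 and 0.389) and 0.222 and 4.57 in fibroblasts. In library 1 its level in pericytes was at least 281-fold higher than the limit in endothelial cells, and on summed UMIs of the joint table (802 and 227) the ratio was 30.9 (26.7 to 36.0), again smaller than that of the mean levels. The log2 difference was 7.66 ± 1.0 (limma, adjusted p = 0.000278), with a DESeq2 adjusted p of 0.142. Shmt2 was at 0.177 and 0.134 in pericytes.

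Ndufa4 (chr6:11900292-11907497, minus strand) went the other way, at 0.770 and 1.40 in pericytes (blocks 1.12, 1.58 and 1.66) and 6.26 and 5.82 in endothelial cells (blocks 6.02, 5.74 and 5.64). The difference was -2.45 ± 0.31 (limma, adjusted p = 0.000222), with no overlap. Ndufa4l2 was 97.8% (94.6% to 99.4%) and 95.1% (93.5% to 96.5%) of the pair in pericytes and 0% (up to 2.32%) and 13.3% (11.7% to 15.01%) in endothelial cells. The pericyte marker Rgs5 was at 95.5 and 95.5 in pericytes, 0 and 3.67 in endothelial cells and 0 and 5.89 in fibroblasts, and Acta2 at 36.0 and 25.4 in pericytes and 0 and 0.538 in endothelial cells. In the joint table the low endothelial levels of Cox4i2 and Ndufa4l2 stood beside low levels of both markers. Fibroblasts of that table had Ndufa4l2 at 20.2% (16.8% to 23.9%) of the pair. In library 1 it was 2.87% of the pair in fibroblasts (18 UMIs), where Rgs5 was at 0. The part of pericyte RNA in the endothelial and fibroblast levels was not tested.

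Other subunits differed by less. Cox8a, the widespread form of the smallest complex IV subunit (chr19:7215153-7217616, minus strand), was at 16.7 and 19.1 in pericytes and 6.62 and 7.63 in endothelial cells, a log2 difference of 1.35 ± 0.19 (limma, adjusted p = 0.000414). Cox6c, another complex IV subunit, was at 14.7 and 12.6 against 6.14 and 6.53 (1.13 ± 0.20). In complex I, Ndufb6 was at 2.59 and 1.74 against 0.756 and 0.982 (1.28), Ndufa13 at 7.03 and 5.84 against 2.57 and 3.08 (1.21), Ndufa11 at 3.25 and 3.52 against 1.14 and 1.88 (1.21) and Ndufb2 at 2.73 and 3.22 against 1.15 and 1.64 (1.11). Pericyte and endothelial values of the tables did not overlap in any of these. Of the mitochondrial members mt-Nd2, at 49.5 and 36.0 against 23.5 and 21.5, rose by 0.94 (limma, adjusted p = 0.0122) and mt-Nd4l by 0.65 (adjusted p = 0.0445), the second past the threshold in only 4 of 16 settings. Ndufs1 passed the test, but 1 of the 3 barcode blocks had the opposite sign, at -0.80.

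**Figure D5:**
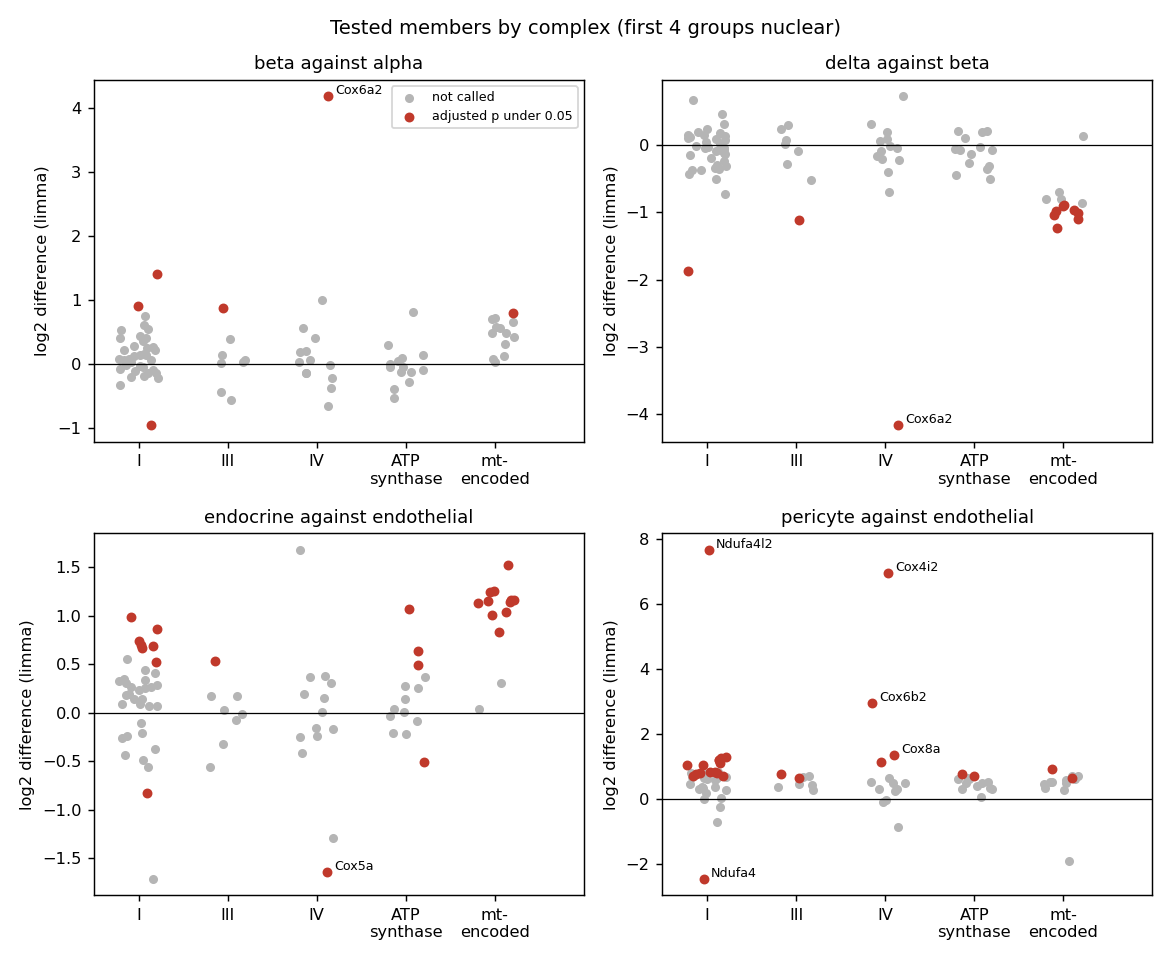
Log2 difference of each tested member in the 4 comparisons, by nuclear complex (from the gene symbol) and with mitochondrially encoded members last, in red where the adjusted p was under 0.05 (limma). Mitochondrial members other than mt-Nd6 lay below 0 in delta against beta cells (median -0.90) on the hormone-free total, while none was called lower with all UMIs as the total, and 66 of 73 nuclear members lay above 0 in pericytes against endothelial cells.

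The remaining paired forms were low or uniform. Cox6b2, a testis form, was at 0.339 and 0.325 in pericytes, 0.316 and 0.267 in fibroblasts and 0 and 0.000953 in endothelial cells. Its difference from endothelial cells, 2.95 ± 0.37 (limma, adjusted p = 0.000221), rests on 2 and 11 pericyte UMIs, and it was 5.71% and 5.26% of the UMIs it shared with Cox6b1 in pericytes. Cox7a1, a muscle form, was at 0.0122 and 0.0469 in beta cells and at most 0.224 in the 7 tested classes. In the joint table Cox7b2 had 10 UMIs, Cox8b had 6 and Cox8c had 0 over the named classes, which allows a level of up to 0.000508.

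Of the widespread forms, Cox6b1 was between 3.04 and 6.55 and Cox7a2 between 3.41 and 6.69 over the 7 tested classes and PP cells. Cox7b was between 1.78 and 3.43. Cox7a2l, which helps join complexes III and IV, was at 8.87 and 7.04 in beta against 5.0 and 4.71 in alpha cells, a log2 difference of 0.57 that was not called (limma, adjusted p = 0.185). The 3 genes for the same ATP synthase c subunit differed in order. Atp5g1 was at 4.93 and 5.43 in beta against 2.44 and 2.92 in alpha cells, a difference of 0.81 that was not called (limma, adjusted p = 0.063). Atp5g2 had the reverse order, at 4.21 and 4.27 in beta against 5.38 and 5.87 in alpha cells. Atp5g3 was at 2.72 and 2.51 in beta against 2.04 and 2.28 in alpha cells.

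Other genes of the pathway outside the members, 99 for complex II, electron carriers, assembly, mitochondrial DNA expression, regulators, membrane carriers and the citric acid cycle, were counted beside them, and 96 were tested. In beta against alpha cells 2 were lower and none was higher by limma or by edgeR, with 3 higher at an unadjusted p under 0.05 in limma and 3 called by DESeq2. Limma called 2.42% of all tested genes lower and 2.49% higher, so 2 of 96 lower was near that share. Higd1a, a hypoxia-inducible complex IV assembly protein, was at 0.0119 and 0.0155 in beta cells and 2.32 and 3.10 in alpha cells, a log2 difference of -5.55 ± 0.52 (limma, adjusted p = 0.000136). It was at 0.158 and 0.00614 in delta cells, 0.728 in PP cells and 1.09 and 1.23 in endothelial cells. Ppargc1a, a coactivator of mitochondrial biogenesis, was at 0.0214 and 0.0278 in beta against 0.239 and 0.120 in alpha cells, a difference of -1.70 ± 0.40 (limma, adjusted p = 0.034).

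In delta against beta cells none of the 96 was called by limma, with 2 higher and 3 lower at an unadjusted p under 0.05, while edgeR called 1 and 2 and DESeq2 called 4 and 3. Limma called 2.37% of all tested genes higher and 2.07% lower. The edgeR and DESeq2 counts were not set beside their own shares of all genes. In endocrine against endothelial cells 10 of 96 were higher and 4 lower, smaller shares than the 19.6% and 18.2% of all genes. The higher ones included the assembly factors Uqcc2 (1.23), Ttc19 (1.23), Coa5 (0.96) and Cox17 (0.74), and Lrpprc (1.62), which stabilises mitochondrial mRNAs, and Twnk (1.10), the mitochondrial DNA helicase. Ppargc1a (1.15), Esrrg (1.09), Suclg1 (0.66) and Suclg2 (0.84) were also higher, and Higd1a (-2.33), Vdac3 (-1.18), Vdac2 (-0.96) and Slc25a5 (-0.85) were lower. For Higd1a the lower mean came from beta and delta cells, while its alpha levels given above exceeded the endothelial ones. In pericytes against endothelial cells 10 of 96 were higher, near the 7.39% of all genes, and 1 was lower, against 10.9% of all genes. The higher ones were Fmc1 (1.35), Ndufaf2 (1.34), Surf1 (1.19), Etfb (1.16), Idh3b (1.14), Slc25a4 (1.10), Ndufab1 (1.04), Mdh2 (1.04), Vdac1 (1.01) and Cycs (0.93). Ucp2, a carrier of the inner membrane, was lower, at 0.391 and 0.375 in pericytes and 1.59 and 2.27 in endothelial cells (-2.14, limma, adjusted p = 0.00118).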

How the data were processed

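Per the submitters' processing notes, Cell Ranger (3.2.0 for library 1, 5.0.0 for the joint table), cutadapt 2.5, FastQC 0.11.8 and Seurat (4.0.0 for the joint table) were used with mm10; roles were not stated. The authors deposited library 1 as UMI counts per gene and cell. The authors deposited the joint table as the natural log of 1 plus UMIs scaled to 10000 per cell, and counts were recovered from it: 100% of 28955174 nonzero values came out whole within 0.001. All per-sample columns were used.

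A cell was kept with 500 or more genes, 1000 or more UMIs and no more than 20% of UMIs from mitochondrial genes. Doublets were called with Scrublet per block, removing the top-scoring 0.8% per 1000 cells (6 and 377 cells). Cells were clustered with scanpy 1.11.5 (2000 variable genes without members, 30 principal components, 15 neighbours, Leiden resolution 1), and clusters were named from markers among their leading 10 genes, or 50 where these did not decide.

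Levels were fitted with limma 3.58.1 (R 4.3.3) over 14 columns of 7 classes and 2 tables, with the table as a replicate block, because all classes of a table come from the same islets; 6 residual degrees of freedom remained. Genes needed 0.1 per 10000 in at least 2 columns; the pseudocount was 0.05 and the Benjamini-Hochberg threshold 0.05. edgeR 4.0.16 and DESeq2 1.42.0 on summed recovered counts, other totals, filters, clusterings and thinning were alternatives. Because the joint table had to be turned back into counts, the mean level and not a count model was the main measure. Data were simulated for beta against alpha cells (11066 genes). Called were 2.22% of 90 genes changed 2-fold, 29.9% of 97 changed 4-fold and 0% of 10879 unchanged genes. Among changed genes at 1 or more per 10000 the shares were 14.3% of 14 and 87.5% of 16. Apart from the changed genes, all simulated classes of a table shared the same mean profile and a fixed spread. Real classes differ in both, so these shares may not hold for the real fit.

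Named members were the isoform genes, the mitochondrial members and, per comparison, up to 10 called members with the largest difference in the same direction in both tables and every block; other called members were added as values, and the values of 1 member are not reported here. Members and lists were chosen with earlier results of these data known. Promoters are from RefSeq on GRCm38.p6.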

Additional observations from a re-analysis of the deposited data

Results flagged for a closer look

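Several members were listed in 1 table only, entered no comparison, and were present above the limit that a count of 0 allows. In library 1, where that limit was 0.00319 UMIs per 10000 hormone-free UMIs over the named classes, Atp5o.1 was at 1.84 and Atp5s at 0.131. In the joint table, with a limit of 0.000508, Atp5md was at 4.71, Ndufb1-ps at 3.77, Atp5mpl at 2.49 and Atp5o at 1.83. Cox7b2, at 0.00169, and Cox8b, at 0.00102, rested on 10 and 6 UMIs. Ndufb1-ps is annotated as a lncRNA from a bidirectional promoter, despite its symbol. Atp5o.1 in library 1 and Atp5o in the joint table had like levels, but the files do not say that they are one gene.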

How the results depend on the processing

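The counts of members past the threshold, given here as higher and lower in each comparison, moved by over 1.5 times in several settings, and the cause was not tested unless stated. The counts stand without the share of all genes called in the same setting. They therefore do not show whether a change was particular to the members. For beta against alpha cells (5 and 1) they were 23 and 5 with DESeq2, 2 higher at Leiden resolution 0.5, 2 and 2 with all UMIs as the total, 2 lower at most 10% mitochondrial UMIs and 2 lower with no such limit, 2 and 0 without cells holding a second hormone, 9 higher without centring, 1 and 0 without the filter, 20 and 8 with only the classes compared, 10 higher at a pseudocount of 0.5 and 0 and 0 after thinning.

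For delta against beta cells (0 and 11) they were 4 and 19 with DESeq2, 1 higher with edgeR, 6 lower at Leiden resolution 0.5, 1 and 3 with all UMIs, 3 lower without second-hormone cells, 1 higher without centring, 1 lower without the filter, 7 lower with no mitochondrial limit, 1 higher with only the classes compared, 1 higher at a pseudocount of 0.5 and 0 lower after thinning. For endocrine against endothelial cells (22 and 3) they were 46 and 5 with DESeq2, 7 lower with all UMIs, 14 and 1 without second-hormone cells, 1 lower without centring, 2 and 1 without the filter, 11 lower with only the classes compared and 0 and 1 after thinning. For pericytes against endothelial cells (25 and 1) they were 8 higher with edgeR, 11 and 2 at Leiden resolution 0.5, 10 higher without second-hormone cells, 16 higher without the filter and 2 and 0 after thinning.

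Without the replicate block, which pairs the classes of a table, 2 members were higher in beta than alpha cells, 6 lower in delta than beta cells, 16 higher in endocrine than endothelial cells and 16 higher in pericytes. Leaving the Ppy-led cluster out of the alpha class, chosen after seeing the data, gave 5 and 1, 0 and 10, 19 and 3, and 18 and 1.

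After thinning to 1000 UMIs, 8 endocrine against endothelial differences changed sign: mt-Nd4 (-0.10), mt-Nd2 (-0.0198), mt-Nd5 (-0.0133), Atp5e (-0.19), Atp5g1 (-0.62), mt-Atp6 (-0.32), mt-Nd3 (-0.21) and mt-Nd4l (-0.55). In that setting 53.6% of 11956 genes were at 0 in endothelial cells of library 1, so its centring median was the pseudocount itself (-4.32), and the median over all genes moved from 0.05 to -0.88. Without centring that median was 0.19 and for beta against alpha cells 0.06 in place of -0.07; without the filter it was 0.75 in place of -0.07 for pericytes.

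Leaving out either table kept the direction of all 43 named differences, but 1 table leaves no residual degrees of freedom and so gave no test. With 2 tables, 12 pericytes and 26 endothelial cells in library 1, small differences could be missed. Shares of free RNA in a class were not removed.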
